A study of Mus musculus with 25 samples.

Results

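Amino acid transporter genes were compared between a mouse alpha-cell line and a mouse beta-cell line. Members were taken by gene symbol, as every gene of the solute carrier families SLC1, SLC3, SLC6, SLC7, SLC36, SLC38 and SLC43, and every open-chromatin region whose nearest gene carried such a symbol. The nearest gene was taken as the authors annotated it. The rule found 63 of 24439 listed genes and 213 of 65053 regions of the ATAC-seq consensus table. The regions belonged to 53 genes, and 49 of them lay within 2 kb of a transcription start site while 164 were distal. Slc38a9 was listed as 2 gene entries, and Slc7a6os was taken in by its symbol although it is not a transporter, as was Slc6a19os among the regions, with 1 region higher in βTC6 (log2 fold change 1.42). Both stay in the counts of genes and regions below, but Slc7a6os is left out of the summed levels.

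Open chromatin was measured by ATAC-seq and RNA by RNA-seq in αTC1 (alpha TC1 clone 6, glucagon-producing) and βTC6 (beta-TC-6, insulin-producing), 2 lines from mouse islet tumours in which a viral T antigen was driven by a glucagon promoter (αTC1, a clone) or an insulin promoter (βTC6). ATAC-seq covered 5 libraries of each pure line and 9 single libraries of αTC1 and βTC6 cells mixed in steps of 10%, and RNA-seq covered 3 libraries of each line. No treatment or time course was applied. The lines were kept in different media: αTC1 medium was supplemented with non-essential amino acids, HEPES and albumin, whereas the βTC6 medium was listed without them, contained more serum and had sodium pyruvate added. The base media differed as well, with a stated glucose level for αTC1 alone, so line and medium, amino acid supply included, cannot be told apart. The labels do not state that replicates came from separate cultures, so the p-values below measure only the spread between these libraries. In bulk libraries fewer cells of a type and less RNA per cell cannot be told apart.

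Amino acids enter and leave cells through carriers that differ in substrate and driving force. SLC1 and SLC6 carriers and most of the SLC38 family are sodium-coupled, SLC36 carriers are proton-coupled and partly lysosomal, and the SLC7 light subunits are exchangers that need an SLC3 heavy subunit to reach the plasma membrane. In islets, glutamine, leucine and arginine influence hormone secretion and mTORC1 signalling, and amino acids are linked to the size of the alpha-cell population through glucagon and the liver.

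RNA-seq libraries held 21795367 to 25876765 expected counts, the pure ATAC-seq libraries 4397851 to 10374903 reads in consensus peaks, and the mixtures 5277983 to 7294832. The cell type markers followed the labels: 7 of 7 beta-cell markers (Ins1, Ins2, Pdx1, Mafa, Nkx6-1, Slc2a2 and Iapp) were higher in βTC6, with a summed level of 34101 to 51154 FPKM (fragments per kilobase of transcript, scaled to library size) against 14.5 to 15.6 in αTC1, and 5 of 5 alpha-cell markers were higher in αTC1, at 12352 to 14698 FPKM against 194 to 283. Both delta-cell markers were looked for, and their sum, almost all of it Sst, reached 207 to 325 FPKM in βTC6, against 0.06 to 0.13 in αTC1, while Hhex was under 1 FPKM. The 5 acinar, 3 endothelial and 3 fibroblast markers were each under 1 FPKM in all 6 libraries. The summed level of Ppy and Ghrl was 0.25 to 0.97 FPKM in αTC1 and 3.78 to 51 in βTC6, there mostly Ppy (26 ± 23.7, SD, n = 3). The 3 ductal markers summed to 4.05 to 4.42 and 0.01 to 0.06, in αTC1 almost all Sox9. The 3 immune markers summed to 0.92 to 1.2 and 2.03 to 2.19, almost all Cd68. Krt19, Cftr, Ptprc and Cd3e were each at 0.08 FPKM or less in all 6 libraries. The part of any cells with these marker transcripts in the transporter differences was not tested. ERCC spike-in profiles fell into 2 sets that crossed the lines: αTC1 replicates 1 and 2 with βTC6 replicate 2, and αTC1 replicate 3 with βTC6 replicates 1 and 3. αTC1 replicates 1 and 2 were the closest pair of RNA-seq libraries, with a median difference of 1.53 times the sampling noise against 7.09 to 11.7 for the other pairs of the same line.

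Of the 63 genes, 35 reached 1 FPKM in every library of either line or both and were tested, and 26 reached it in all 6 libraries. At a false discovery rate (FDR) under 5%, 18 of 35 tested entries (51.4%) were higher in βTC6, against 38.7% of all 12195 tested genes. In αTC1, 8 (22.9%) were higher, against 36% of all genes. Slc7a6os, which is not a transporter, is 1 of these 8 (log2 fold change -0.24, edgeR adjusted p = 0.0473). With an absolute log2 fold change over 2 added, 8 (22.9%) were higher in βTC6, against 10.2% of all genes, and 2 (5.71%) were higher in αTC1, against 4.08%. Each spike-in set held a single library of 1 line, which is assumed to vary like the other line: set 1 alone gave 18 and 13 transporter genes at FDR under 5% (5272 and 5109 of all 12195), and set 2 alone gave 21 and 6 (4043 and 3600). The spread within set 1 came from αTC1 replicates 1 and 2, the closest pair. The median log2 fold change of βTC6 over αTC1 was 0.38 over the tested members and 0.01 over all tested genes, and the median absolute values were 0.85 and 0.61. The 8 genes strongly higher in βTC6 were Slc1a1, Slc1a2, Slc6a19, Slc7a7, Slc7a8, Slc7a4, Slc36a1 and Slc38a6, and the 2 strongly higher in αTC1 were Slc6a5 and Slc1a5. In mm9, Slc6a5 spans chr7:57165516-57219226 and Slc1a5 chr7:17366695-17383623. Slc1a1 spans chr19:28909539-28988450, Slc1a2 chr2:102498816-102630941, Slc6a19 chr13:73817193-73842313 and Slc36a1 chr11:55017852-55049832. Slc7a7 spans chr14:54989128-55032856, Slc7a8 chr14:55341053-55400723, Slc7a4 chr16:17572111-17577091 and Slc38a6 chr12:74387766-74455036. All p-values for genes are from edgeR's quasi-likelihood test with Benjamini-Hochberg adjustment over all tested genes.

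**Figure D1:**
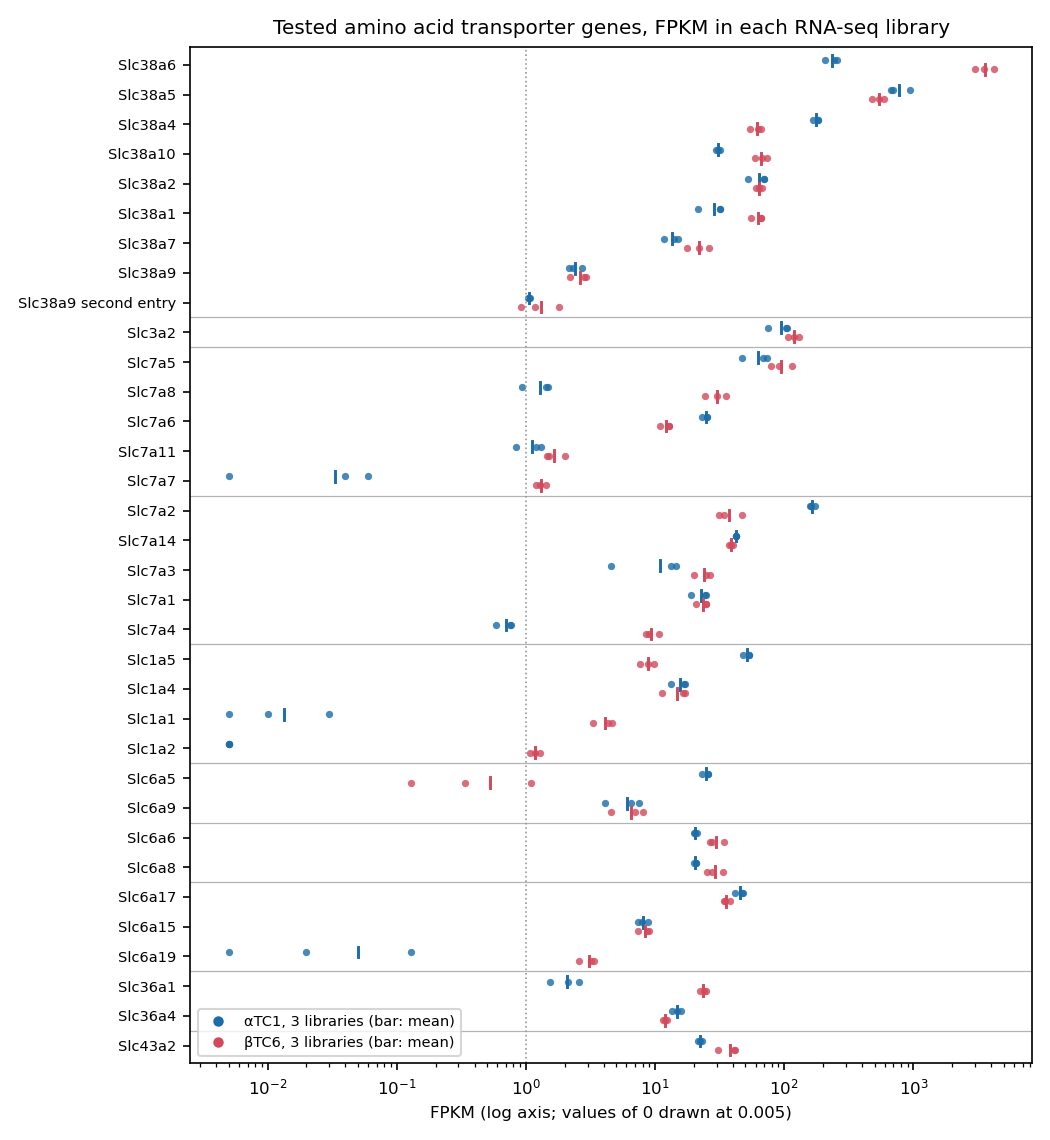
FPKM of the tested transporter entries, Slc7a6os left out, in each of the 3 αTC1 and 3 βTC6 RNA-seq libraries, on a log axis with listed values of 0 drawn at its left end, 1 point per library and a bar at each line's mean. Slc6a5, Slc1a5, Slc7a2 and Slc38a4 sat higher in αTC1, whereas Slc1a1, Slc1a2, Slc6a19, Slc7a8, Slc7a4 and Slc36a1 sat higher in βTC6.

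The SLC38 family held the most abundant transporter transcripts in both lines. Of its 12 entries 9 were tested, with 4 higher in βTC6, 2 higher in αTC1 and 3 not called, beside 38.7% and 36% of all tested genes in the called directions. Slc38a5, a sodium-coupled carrier of glutamine, asparagine and serine, was at 675.7, 694.1 and 939.1 FPKM in αTC1 and at 544.5, 594.2 and 476.6 in βTC6. The groups did not overlap, but αTC1 replicate 3 stood above its 2 fellows. The log2 fold change of βTC6 over αTC1 was -0.46 (SE 0.15, edgeR adjusted p = 0.0213). This call was lost without αTC1 replicate 3 (log2 fold change -0.28, edgeR adjusted p = 0.0527) and also under spike-in scaling (-0.47, SE 0.42, edgeR adjusted p = 0.445) and without βTC6 replicate 1 (edgeR adjusted p = 0.0603) or 3 (0.0671). Within the spike-in sets the log2 fold change was -0.12 (set 1) and -0.84 (set 2).

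Slc38a4, which carries small neutral and also cationic amino acids, was at 183.2, 181.0 and 166.7 FPKM in αTC1 and at 62.85, 66.01 and 54.05 in βTC6, and the groups were far apart. It fell by 1.54 on the log2 scale from αTC1 to βTC6 (SE 0.09, edgeR adjusted p = 7.98e-07). Slc38a1, a system A carrier that brings glutamine and alanine into the cell, was at 31.79, 31.94 and 21.42 FPKM in αTC1 and at 55.37, 66.52 and 65.72 in βTC6, a log2 fold change of 1.18 (SE 0.15, edgeR adjusted p = 0.000105). Slc38a10 showed the same size of difference, with 29.76, 30.48 and 31.94 FPKM in αTC1 and 73.01, 66.99 and 59.22 in βTC6 (log2 fold change 1.18, SE 0.10, edgeR adjusted p = 4.99e-06). Neither gene had overlapping groups. Slc38a2, the system A carrier that is induced by amino acid shortage, overlapped between lines at 69.62, 69.75 and 52.69 against 64.19, 67.10 and 60.91 FPKM (log2 fold change 0.06, SE 0.12, edgeR adjusted p = 0.661). Slc38a7, a carrier of glutamine out of lysosomes, was higher in βTC6 by 0.87 on the log2 scale, and both entries of Slc38a9, a lysosomal arginine sensor, were between 0.91 and 2.92 FPKM and were not called.

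Slc38a6 was listed at 255.3, 240.8 and 205.4 FPKM in αTC1 and at 3002.1, 3510.3 and 4186.6 in βTC6, a log2 fold change of 3.79 (SE 0.16, edgeR adjusted p = 9.44e-08). It took 0.0813 to 0.102% of all expected counts in αTC1 and 1.1 to 1.39% in βTC6. An exon at chr12:74411977-74415507 (mm9), 3531 bases long and part of 3 of the 9 annotated transcripts, consisted of repeated sequence: cut into windows of 100 bases, 69 of 69 aligned to at least 10 places in the genome, at a median of 1528 places. Over all exons of the gene 70 of 124 windows (56.5%) did so, while no other transporter gene exceeded 5.29%. The effective transcript length implied by counts and FPKM was 3884 to 3900 bases in αTC1 and 3256 to 3621 in βTC6. The promoter region was at a mean of 39.5 normalized reads in αTC1 and 32.2 in βTC6, higher in αTC1 (log2 fold change -0.29, SE 0.10, limma adjusted p = 0.00969), but not with quantile normalization (0.03). The part of multiply aligned reads in the Slc38a6 value was not tested, and sums are therefore given with and without this gene.

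Among the SLC7 light subunits, 4 of 5 tested genes were higher in βTC6 and 1 was higher in αTC1, where 38.7% and 36% of all tested genes were called. Slc7a8, an exchanger of neutral amino acids, was at 1.42, 1.47 and 0.94 FPKM in αTC1 and at 30.39, 24.47 and 35.47 in βTC6. It was 24.6-fold higher in βTC6 (log2 fold change 4.62, SE 0.19, edgeR adjusted p = 8.29e-08), with no overlap. Slc7a5, the main leucine exchanger, was at 68.28, 73.39 and 46.86 FPKM in αTC1 and at 91.50, 79.17 and 114.3 in βTC6, a smaller difference (log2 fold change 0.65, SE 0.18, edgeR adjusted p = 0.00867) whose call was lost under spike-in scaling (0.58, SE 0.42, edgeR adjusted p = 0.32) and which was 0.24 within spike-in set 1 and 1.17 within set 2. Slc7a7, which exports cationic amino acids in exchange for neutral ones, was at 0.00, 0.04 and 0.06 FPKM in αTC1, 5 counts in all, and at 1.42, 1.2 and 1.29 in βTC6. The ratio of summed counts, scaled to library totals, was 40.7, with a 95% exact interval of 17.1 to 127 that covers counting error only (edgeR adjusted p = 6.12e-06). The fitted log2 fold change moved from 5.25 to 5.89 without αTC1 replicate 3. Its exons overlapped those of Oxa1l on the other strand over 9.96% of their length, and since the counting was run with default settings, which do not use strand, reads of the 2 genes cannot be told apart there.

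Slc7a6, a close relative of Slc7a7 with the same kind of exchange, went the other way, at 25.26, 25.41 and 23.22 FPKM in αTC1 and 12.78, 12.89 and 10.90 in βTC6 (log2 fold change -0.96, SE 0.09, edgeR adjusted p = 1.16e-05). The 2 genes of this exchange system lay on opposite sides, with Slc7a6 the more abundant in both lines, and the Slc7a6 call was lost under spike-in scaling, with an unmoved log2 fold change of -0.96 and a larger error (SE 0.42, edgeR adjusted p = 0.0678). Slc7a11, the cystine-glutamate exchanger, was low in both lines, at 0.84 to 1.31 FPKM in αTC1 and 1.46 to 2.00 in βTC6 (log2 fold change 0.85, SE 0.24, edgeR adjusted p = 0.0108).

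The heavy subunit Slc3a2, the partner of these exchangers, was at 104.0, 105.8 and 74.61 FPKM in αTC1 and at 119.0, 106.9 and 129.3 in βTC6. The lowest βTC6 library was just above the highest αTC1 library, and the log2 fold change was 0.38 (SE 0.14, edgeR adjusted p = 0.0279). The call was lost without βTC6 replicate 1 (edgeR adjusted p = 0.0683), without βTC6 replicate 3 (0.0892), under spike-in scaling (log2 fold change 0.35, SE 0.42, edgeR adjusted p = 0.595) and with limma on log2(FPKM + 1) (limma adjusted p = 0.0531) or log2(FPKM + 0.1) (0.0548), and the log2 fold change was 0.12 within spike-in set 1 and 0.78 within set 2. Slc3a1, the heavy subunit of the cystine and cationic exchanger, was at 0.29 to 0.60 FPKM in αTC1 and 0.69 to 1.37 in βTC6 and was not tested. Its exons overlapped those of Prepl over 26.4% of their length, and Slc7a9, its light subunit, was under 0.1 FPKM in all libraries.

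The cationic carriers divided between the lines. Slc7a2, an arginine and lysine carrier that is inducible by inflammation in many cells, was at 158.7, 160.8 and 173.7 FPKM in αTC1 and at 34.32, 31.25 and 47.38 in βTC6. It fell by 1.97 on the log2 scale (SE 0.16, edgeR adjusted p = 4.05e-06), and every αTC1 library was far above every βTC6 library. Slc7a3, another arginine carrier, was at 13.36, 14.64 and 4.58 FPKM in αTC1 and at 26.54, 20.08 and 24.95 in βTC6 (log2 fold change 1.19, SE 0.35, edgeR adjusted p = 0.0117), with αTC1 replicate 3 far below its fellows. Slc7a1, the widely expressed arginine carrier, overlapped between lines, with means of 22.7 and 23.4 FPKM (edgeR adjusted p = 0.361). Slc7a4, a relative of these carriers, was at 0.76, 0.75 and 0.59 FPKM in αTC1 and at 10.73, 8.45 and 8.90 in βTC6, 16.6-fold higher (log2 fold change 4.06, SE 0.17, edgeR adjusted p = 9.45e-08), with 13.9% of its exon length shared with P2rx6 on the other strand. The summed level of the 5 cationic carriers was 241 ± 2.16 FPKM in αTC1 and 133 ± 13.5 in βTC6 (SD, n = 3 each).

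Glutamine and glutamate carriers of SLC1 were called in both directions. Slc1a5, a sodium-coupled exchanger of glutamine and other neutral amino acids, was at 53.78, 53.39 and 47.96 FPKM in αTC1 and at 7.70, 8.78 and 9.84 in βTC6. It was 6.21-fold higher in αTC1 (log2 fold change -2.63, SE 0.09, edgeR adjusted p = 2.22e-08), without overlap. Slc1a1 and Slc1a2, both high-affinity glutamate uptake carriers of neurons and glia, were found almost only in βTC6 libraries. Slc1a1 was at 0.03, 0.01 and 0.00 FPKM in αTC1 (2 counts in all) and at 4.32, 3.33 and 4.67 in βTC6, a scaled count ratio of 570 with a 95% exact interval of 157 to 4711 (edgeR adjusted p = 1.12e-07). Slc1a2 had 0 counts in all 3 αTC1 libraries and 1.17, 1.07 and 1.28 FPKM in βTC6, at least 83.1-fold higher when 3 counts per library are set as the floor (edgeR adjusted p = 6.00e-07). Slc1a4, an exchanger of alanine, serine and cysteine, was not called (log2 fold change -0.01, SE 0.15, edgeR adjusted p = 0.944).

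The SLC6 family carried the largest drop. Slc6a5, the glycine carrier of glycinergic nerve endings, was at 25.77, 25.84 and 23.12 FPKM in αTC1 and at 1.10, 0.13 and 0.34 in βTC6. It was 51-fold higher in αTC1 (log2 fold change -5.67, SE 0.46, edgeR adjusted p = 4.37e-06), and the 3 βTC6 libraries differed among themselves. Without βTC6 replicate 1, the highest of them, the log2 fold change was -6.68. Slc6a9, the other glycine carrier, overlapped between lines (log2 fold change 0.35, SE 0.31, edgeR adjusted p = 0.327), and 30.2% of its exon length was shared with Ccdc24. The sum of both glycine carriers was 31 ± 3.31 FPKM in αTC1 and 7.08 ± 2.11 in βTC6 (SD, n = 3 each). Slc6a19, the sodium-coupled neutral amino acid carrier known from intestine and kidney, was at 0.00, 0.13 and 0.02 FPKM in αTC1 (3 counts in all) and at 3.38, 3.21 and 2.58 in βTC6, a scaled count ratio of 266 with a 95% exact interval of 90.6 to 1292 (edgeR adjusted p = 2.23e-07). Its fitted log2 fold change moved from 7.89 to 8.71 without αTC1 replicate 3. Slc6a6, a taurine carrier, and Slc6a8, the creatine carrier, were higher in βTC6 by 0.58 and 0.56 on the log2 scale. Slc6a17, a vesicular neutral amino acid carrier of neurons, was slightly higher in αTC1 (log2 fold change -0.29, SE 0.08, edgeR adjusted p = 0.0103), and Slc6a15 was not called (0.11, SE 0.10, edgeR adjusted p = 0.36).

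Of the proton-coupled carriers, Slc36a1, which moves small neutral amino acids out of lysosomes, was at 2.56, 2.12 and 1.54 FPKM in αTC1 and at 24.00, 22.35 and 24.76 in βTC6. The groups were separated by a wide gap and the gene was 13.9-fold higher in βTC6 (log2 fold change 3.80, SE 0.12, edgeR adjusted p = 1.77e-08). Its relative Slc36a4 stood at a mean of 14.7 FPKM in αTC1 and 11.9 in βTC6 and was not called (log2 fold change -0.17, SE 0.08, edgeR adjusted p = 0.0618). Slc43a2, a carrier of branched-chain amino acids, was higher in βTC6 by 0.59 on the log2 scale (SE 0.11, edgeR adjusted p = 0.000827).

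Among the remaining entries, Slc7a14 is described below, Slc7a6os had means of 22.8 FPKM in αTC1 and 18.7 in βTC6, and the others were low. In all 6 libraries 18 of the 63 genes were under 0.1 FPKM, among them the monoamine carriers Slc6a2, Slc6a3 and Slc6a4 and the GABA carrier Slc6a11, and Slc7a12, Slc36a3 and Slc6a7 had 0 counts throughout. A further 10 untested genes reached at least 0.1 FPKM in some library, and of these Slc38a3 was at 0.19 to 0.40 FPKM in αTC1 and 0.03 to 0.07 in βTC6, and Slc1a7 at 0.02 to 0.12 and 0.29 to 0.66.

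By mean FPKM, which is per transcript length, the order in αTC1 was Slc38a5, Slc38a6, Slc38a4, Slc7a2, Slc3a2, Slc38a2, Slc7a5 and Slc1a5, from 770 ± 147 to 51.7 ± 3.25 FPKM (SD, n = 3). In βTC6 it was Slc38a6, Slc38a5, Slc3a2, Slc7a5, Slc38a10, Slc38a2, Slc38a1 and Slc38a4, from 3566 ± 594 to 61 ± 6.2 FPKM. The last 4 of βTC6 lay between 61 and 66.4 FPKM, closer than their spread, and the libraries of Slc38a4 and Slc7a2 in αTC1 overlapped, at 177 ± 8.96 and 164 ± 8.13. The libraries of Slc38a2, Slc7a5 and Slc1a5 in αTC1 also overlapped, as did those of Slc3a2 and Slc7a5 in βTC6, so these places are not resolved. Without Slc38a6, the summed level of all members was 1747 ± 77.9 FPKM in αTC1 and 1428 ± 16 in βTC6, whereas with it the sums were 1981 ± 52.5 and 4994 ± 581, so the direction of the total turned with this gene. The acidic and ASC carriers summed to 67.5 ± 5.23 and 29.6 ± 4.31 FPKM, the light subunits to 90.4 ± 15.9 and 141 ± 22.6, and the SLC36 carriers to 16.8 ± 1.1 and 35.6 ± 1.55, each for αTC1 and βTC6 in that order.

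Genes that respond to amino acid supply were examined beside the carriers. Of 17 tested genes of amino acid stress and synthesis, 8 were higher in βTC6 and 3 in αTC1. Cbs, an enzyme that makes cystathionine from homocysteine and serine, rose most, from 0.487 ± 0.0764 to 20.3 ± 6.16 FPKM (SD, n = 3, log2 fold change 5.73, SE 0.27, edgeR adjusted p = 1.83e-07). Chac1, a glutathione-degrading target of Atf4, was higher in βTC6 by 1.59, whereas Atf4 RNA was not called (log2 fold change 0.03, SE 0.14, edgeR adjusted p = 0.838). Ddit4, an inhibitor of mTORC1, was higher in αTC1 (log2 fold change -1.94, SE 0.30, edgeR adjusted p = 0.000326). Of 23 tested genes of lysosomal amino acid sensing, 10 were higher in βTC6, among them Flcn (1.79) and its partner Fnip1 (1.22), which act on the Rag GTPases, and 5 were higher in αTC1, among them the mTORC1 inhibitor Sesn3 (-1.88), values being log2 fold changes. Of 10 tested genes of glutamate, glutamine and GABA metabolism, 4 were higher in βTC6 and 5 in αTC1: the glutamine synthetase Glul had a log2 fold change of 0.92, and Gad2, which makes GABA, rose from 0.0333 to 5.64 FPKM. The median log2 fold changes of the 3 lists were 0.13, 0.23 and -0.17, beside 0.01 over all tested genes. The counts called in the lists are to be read beside the 38.7% and 36% of all tested genes that were higher in βTC6 and αTC1.

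Promoter sequences of 3 members are given because they hold motifs of the factors tied to those pathways: the amino acid response motif TGATGNAA, read by ATF4 with a C/EBP partner, and the E-box CACGTG, read by the TFEB family among others. Windows ran from 250 bases before to 50 after the start site, from RefSeq on GRCm38.p6, and motif letters on either strand are in capitals.
Slc7a11 promoter, chr3:50443564-50443863, minus strand: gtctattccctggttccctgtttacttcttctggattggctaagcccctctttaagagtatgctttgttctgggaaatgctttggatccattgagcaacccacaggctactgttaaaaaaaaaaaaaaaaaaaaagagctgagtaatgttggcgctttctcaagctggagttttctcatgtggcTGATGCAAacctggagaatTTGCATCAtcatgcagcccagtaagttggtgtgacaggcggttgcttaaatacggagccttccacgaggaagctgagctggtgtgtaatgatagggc
Slc36a1 promoter, chr11:55204090-55204389, plus strand: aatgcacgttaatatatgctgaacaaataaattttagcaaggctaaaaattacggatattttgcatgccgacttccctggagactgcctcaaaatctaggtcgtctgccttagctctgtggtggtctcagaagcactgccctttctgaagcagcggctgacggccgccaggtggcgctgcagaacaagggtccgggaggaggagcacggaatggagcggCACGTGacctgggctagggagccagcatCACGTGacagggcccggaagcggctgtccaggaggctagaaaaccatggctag
Slc1a4 promoter, chr11:20332664-20332963, minus strand: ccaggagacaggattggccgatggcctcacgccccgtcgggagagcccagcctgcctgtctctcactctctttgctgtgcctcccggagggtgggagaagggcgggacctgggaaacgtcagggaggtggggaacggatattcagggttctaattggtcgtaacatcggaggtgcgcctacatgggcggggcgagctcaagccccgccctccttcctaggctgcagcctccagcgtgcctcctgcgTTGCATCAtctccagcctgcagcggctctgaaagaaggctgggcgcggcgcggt
Slc7a11 held TGATGNAA at 2 places on facing strands, Slc36a1 held CACGTG at 2 places and Slc1a4 held TGATGNAA at 1, each written 5′ to 3′ on the gene's strand. Over 65 start-site windows of 44 matched members, TGATGNAA was found in 4 (6.15%, against 3.97% of all windows), which stand for 3 genes since 2 overlapping windows of Slc7a7 share a site, and CACGTG in 8 (12.3%, against 7.15%). The called motif genes did not share a direction: Slc36a1, Slc38a7, Slc7a7 and Slc7a11 were higher in βTC6, and Slc38a5 was higher in αTC1. The Slc38a5 call was lost in the alternatives given above. Slc1a4 and Slc7a14 were not called, and Slc1a6, Slc1a7, Slc43a1 and Slc6a3 were not tested. A match is a description of letters and not of binding.

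Chromatin at the transporter regions was compared with limma on log2-transformed normalized reads (pseudocount 1), with Benjamini-Hochberg adjustment over all regions, and fold changes on this scale understate the change of low regions. At FDR under 5%, 81 of 213 regions (38%) were higher in βTC6, where 39.9% of all regions were called, and 88 (41.3%) were higher in αTC1, against 38.1% of all. With an absolute log2 fold change over 2 added, 20 (9.39%) were higher in βTC6, against 12.9% of all regions, and 8 (3.76%) in αTC1, against 5.38%. These strong counts depended on the setting: they were 36 and 15 with edgeR on recovered reads (13794 and 5739 over all regions), 2 and 3 with a pseudocount of 5 (1668 and 819), and 13 and 14 with quantile normalization (5655 and 5126). Of 49 promoter regions 13 (26.5%) were higher in βTC6 and 22 (44.9%) in αTC1, against 23.4% and 52.3% of all promoter regions, and the median log2 fold changes were -0.14 and -0.31. Of 164 distal regions 68 (41.5%) and 66 (40.2%) were called, against 44.6% and 34% of all distal regions. Of the large differences 18 of 20 and 7 of 8 were distal, as were 7605 of 8409 and 3296 of 3502 over all regions, so the members were near the background in this.

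**Figure D2:**
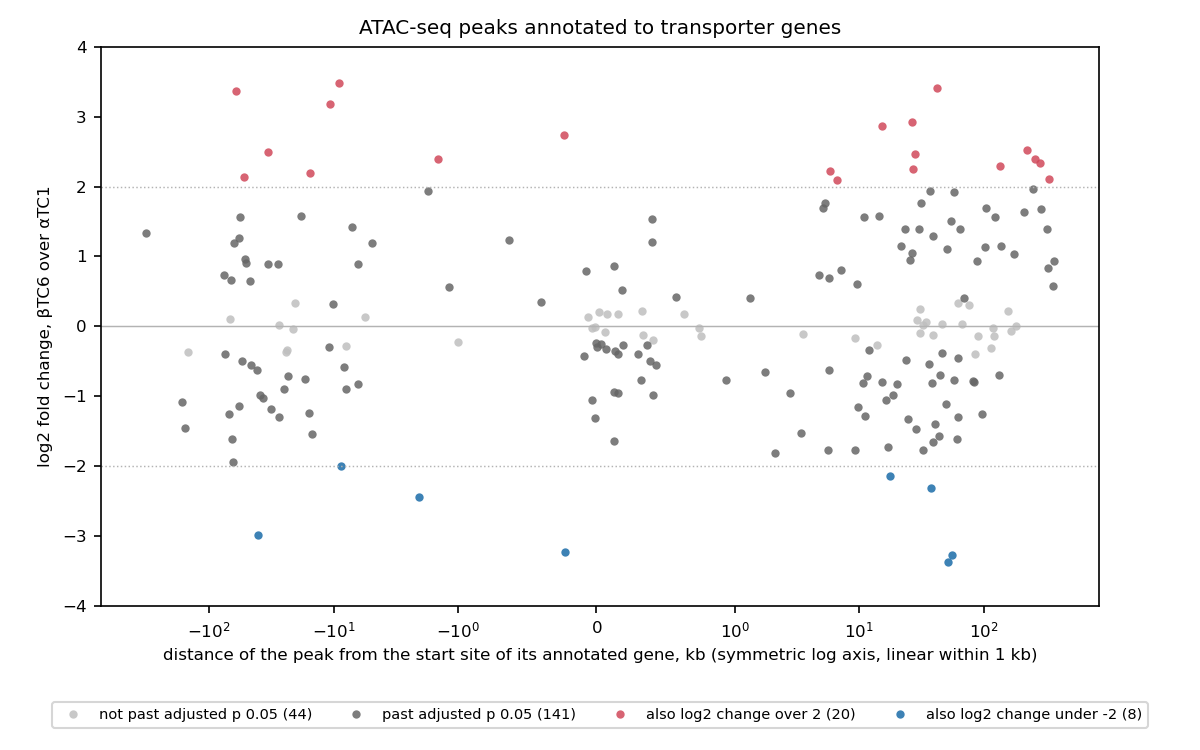
Log2 fold change (βTC6 over αTC1) of each of the 213 transporter regions against its distance from the start site of the annotated gene in kb, on a symmetric log axis that is linear within 1 kb. Of the regions past a log2 fold change of 2, 20 in βTC6 and 8 in αTC1, 18 and 7 are distal.

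Among tested members with a promoter region, 23 of 33 (69.7%) differed in the same direction in RNA and at the promoter, beside 6236 of 9516 genes (65.5%) overall. Where both were called the share was 13 of 18 (72.2%, against 74.8%), and among genes with a large RNA difference it was 8 of 9 (88.9%, against 88.5%). A large RNA difference came with a large promoter difference in 2 of 9 (22.2%, against 29.2%), namely Slc1a1 and Slc6a5.

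The Slc1a1 promoter region, centred 0.24 kb upstream of the start site, was at 1.82, 1.97, 2.71, 6.28 and 2.89 normalized reads in αTC1 and at 26.3, 24.6, 23.4, 21.7 and 29.7 in βTC6. Every βTC6 library was well above αTC1 replicate 4, the highest of its group, and the log2 fold change was 2.74 (SE 0.22, limma adjusted p = 5.94e-10). The Slc6a5 promoter region was at 15.7, 17.6, 16.1, 16.9 and 17.9 in αTC1 and at 0.426, 0.205, 2.03, 3.28 and 0.0939 in βTC6 (log2 fold change -3.23, SE 0.31, limma adjusted p = 1.05e-08), and thus stood open in every αTC1 library and nearly at 0 in 3 of the 5 βTC6 libraries.

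Other promoters moved less than the RNA, as much, or more. Slc36a1, 13.9-fold higher in βTC6 by RNA, had 5.26 to 9.52 normalized reads at its promoter in αTC1 and 8.28 to 13.9 in βTC6, with overlapping groups (log2 fold change 0.52, SE 0.19, limma adjusted p = 0.0149). Slc7a8 had 10.5 to 13.0 in αTC1 and 25.8 to 33.8 in βTC6 (1.21, SE 0.12, limma adjusted p = 1.13e-08), and Slc1a5 had 38.1 to 49.7 and 14.6 to 26.9 (-0.99, SE 0.14, limma adjusted p = 1.62e-06). Both of these pairs of groups were apart. The Slc38a4 promoter, at 12.7 to 18.6 in αTC1 and 2.67 to 7.61 in βTC6, differed about as much as its RNA (-1.64, SE 0.23, limma adjusted p = 1.89e-06). The promoters of Slc36a4 (-1.05) and Slc7a14 (-0.77) were called higher in αTC1 while their RNA was not called. The promoters of Slc7a2 and Slc38a2 were open in both lines, at means of 46.9 and 38.6 and of 52 and 42.6 normalized reads. Slc38a6, Slc7a5, Slc3a2, Slc38a10 and Slc6a6 were called higher in βTC6 by RNA and higher in αTC1 at the promoter, where their log2 fold changes ran from -0.29 to -1.32. Without Slc6a6 (-1.32) they ran from -0.29 to -0.40, near the median of -0.31 over all promoter regions, of which 52.3% were higher in αTC1. The median over all regions of chromosome 6, which holds Slc6a6, was -0.79. With quantile normalization the promoter calls of Slc36a1, Slc7a5, Slc3a2 and Slc38a10 were lost, and the promoter log2 fold changes of Slc38a6, Slc38a2 and Slc7a2 turned positive (0.03, 0.13 and 0.11) without being called. Leaving out 1 library also ended promoter calls: that of Slc36a1 without βTC6 replicate 1 (log2 fold change 0.44, limma adjusted p = 0.0505), those of Slc3a2 and Slc38a2 without αTC1 replicate 1 (-0.30 and -0.24) or 3 (-0.27 and -0.22), and that of Slc7a2 without αTC1 replicate 3 (-0.21).

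**Figure D3:**
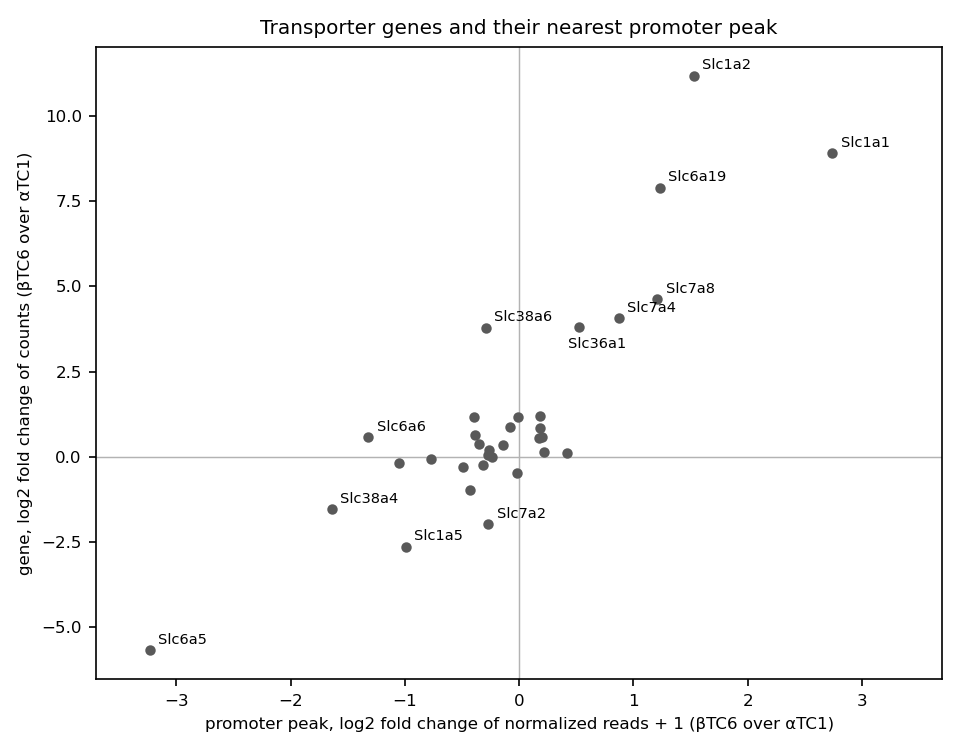
Log2 fold change of RNA counts against that of the promoter region nearest to the start site, 1 point per gene. Shown are the 33 tested entries with such a region, Slc7a6os included. Slc1a1 sits farthest to the right and Slc6a5 farthest to the left, while Slc38a6 lies high above 0 for RNA and slightly below 0 at its promoter.

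Median log2 fold changes differed between chromosomes. On chromosome 14, which holds Slc7a7 and Slc7a8, the median log2 fold change was 1.54 over all regions and 1.2 over all tested genes, and on chromosome 6, which holds Slc6a6 and Slc6a12, it was -0.79 and -0.76. On chromosome 7, which holds Slc6a5 and Slc1a5, it was -0.57 over regions and -0.09 over genes, and on chromosome 11, which holds Slc36a1, Slc38a10 and Slc43a2, it was 0.12 and 0.48. The part of these chromosome-wide differences in the values of those genes was not tested.

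The 300 bases around the centres of 6 distal regions (mm9, plus strand) are shown because each differed strongly and is described below. They were chosen after their values were seen, 5 of them for a motif match, while the Slc7a11 region held none of the motifs searched. Regions over exons of transporter genes (the Slc1a1 and Slc6a5 promoters and the Slc6a15 region) are not printed. Capitals mark CAGATG (an E-box read by bHLH factors such as NEUROD1), TGTTTAC (a forkhead motif) or CACGTG, on either strand.
Slc6a19 upstream peak centre, chr13:73847119-73847418, plus strand: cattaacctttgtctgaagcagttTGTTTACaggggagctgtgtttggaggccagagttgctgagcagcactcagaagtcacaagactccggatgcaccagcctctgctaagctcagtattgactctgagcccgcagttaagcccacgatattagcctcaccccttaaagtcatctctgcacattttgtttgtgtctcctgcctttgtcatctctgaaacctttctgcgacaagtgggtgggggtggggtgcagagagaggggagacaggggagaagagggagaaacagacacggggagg
Slc7a14 peak centre, high in βTC6, chr3:31182357-31182656, plus strand: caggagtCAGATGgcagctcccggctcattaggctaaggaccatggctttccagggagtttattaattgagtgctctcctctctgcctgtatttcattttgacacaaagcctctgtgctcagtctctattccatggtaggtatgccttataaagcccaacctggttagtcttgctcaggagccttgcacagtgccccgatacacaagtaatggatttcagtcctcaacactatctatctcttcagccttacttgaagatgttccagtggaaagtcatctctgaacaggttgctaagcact
Slc7a14 peak centre, high in αTC1, chr3:31153392-31153691, plus strand: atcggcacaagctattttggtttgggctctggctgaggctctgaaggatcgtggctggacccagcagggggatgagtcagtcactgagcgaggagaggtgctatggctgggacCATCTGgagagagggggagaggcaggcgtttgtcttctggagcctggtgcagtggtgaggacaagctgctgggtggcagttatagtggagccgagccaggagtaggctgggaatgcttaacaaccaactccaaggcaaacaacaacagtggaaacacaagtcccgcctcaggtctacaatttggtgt
Slc6a5 upstream peak centre, chr7:57125117-57125416, plus strand: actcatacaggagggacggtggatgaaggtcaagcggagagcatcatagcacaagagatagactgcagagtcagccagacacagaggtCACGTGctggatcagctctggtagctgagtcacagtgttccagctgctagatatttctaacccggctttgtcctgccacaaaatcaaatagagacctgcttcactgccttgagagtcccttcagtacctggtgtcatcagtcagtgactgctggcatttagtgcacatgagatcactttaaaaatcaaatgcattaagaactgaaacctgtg
Slc38a4 peak centre, chr15:96834826-96835125, plus strand: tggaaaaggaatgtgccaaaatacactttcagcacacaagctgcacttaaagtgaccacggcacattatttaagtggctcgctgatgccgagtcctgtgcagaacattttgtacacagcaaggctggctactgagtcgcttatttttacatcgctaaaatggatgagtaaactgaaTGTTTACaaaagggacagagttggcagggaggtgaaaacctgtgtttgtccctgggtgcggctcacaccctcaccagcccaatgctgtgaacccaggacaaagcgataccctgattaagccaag
Slc7a11 upstream peak centre, chr3:50308428-50308727, plus strand: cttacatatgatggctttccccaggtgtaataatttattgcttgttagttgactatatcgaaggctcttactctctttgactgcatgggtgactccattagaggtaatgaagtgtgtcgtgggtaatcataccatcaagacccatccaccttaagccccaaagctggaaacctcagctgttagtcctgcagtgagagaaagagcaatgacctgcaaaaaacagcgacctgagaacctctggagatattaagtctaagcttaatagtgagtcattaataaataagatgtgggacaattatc
The Slc6a19 region lay 9.1 kb upstream of the authors' annotated start site, over an exon of the noncoding gene 5430425J12Rik. By the gene span given above (minus strand), the start is at chr13:73842313, nearer to the region. The Slc6a5 and Slc7a11 regions were intergenic, and the Slc7a14 and Slc38a4 regions were intronic in those genes. CAGATG was found in the central 300 bases of 5 of 8 regions strongly higher in αTC1 (62.5%) and of 9 of 20 strongly higher in βTC6 (45%), while 31.2% of all regions held it, as did 54.7% of all regions strongly higher in αTC1 and 31.4% of those strongly higher in βTC6. CACGTG was in 24 of 213 transporter regions (11.3%, against 5.41% of all regions) and TGTTTAC in 21 (9.86%, against 8.8%). A Maf core, TGCTGAC, was in 15 (7.04%, against 7.01%), the homeodomain core TAATTA in 23 (10.8%, against 9.86%) and TGATGNAA in 14 (6.57%, against 4.71%).

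The Slc6a19 region had the largest moderated t among regions strongly higher in βTC6. It was at 3.92, 2.67, 3.01, 2.46 and 3.32 normalized reads in αTC1 and at 44.3, 44.7, 43.1, 43.1 and 45.2 in βTC6, a log2 fold change of 3.48 (SE 0.13, limma adjusted p = 3.46e-14). The βTC6 libraries hardly differed among themselves, and the gene itself was called higher in βTC6 by RNA. The region annotated as the Slc6a19 promoter was far weaker, at 1.59 to 2.94 in αTC1 and 4.83 to 7.14 in βTC6. That region lies at chr13:73838572-73838974, inside the gene span given above.

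Slc7a14, a lysosomal relative of the cationic carriers, had large regions in both directions while its RNA was not called, at 42.04, 42.61 and 42.38 FPKM in αTC1 and 39.75, 37.51 and 38.64 in βTC6 (edgeR adjusted p = 0.428). Its region 55.7 kb from the start site was at 63.4, 60.1, 63.1, 57.5 and 78.9 normalized reads in αTC1 and at 6.53, 4.92, 4.05, 6.85 and 6.67 in βTC6 (log2 fold change -3.28, SE 0.14, limma adjusted p = 8.98e-14). The region at 26.7 kb showed the reverse, at 1.54, 2.11, 2.1, 1.91 and 2.02 against 18.5, 25.6, 20.4, 18 and 24.7 (2.92, SE 0.18, limma adjusted p = 1.38e-11). These 2 intronic regions thus stood open in different lines. Of all 16 regions annotated to the gene, upstream ones included, 4 were higher in βTC6 and 11 in αTC1, and 2 in each direction were large. Over all regions 39.9% and 38.1% were called in these directions, and 12.9% and 5.38% were large.

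At Slc6a5, 8 of 10 regions were higher in αTC1, where 38.1% of all regions were called and the median over all regions of chromosome 7 was -0.57. The region 40.4 kb upstream was at 49.9, 52.3, 57.1, 53.9 and 43.6 normalized reads in αTC1 and at 6.96, 6.56, 5.95, 4.99 and 3.85 in βTC6 (log2 fold change -2.99, SE 0.14, limma adjusted p = 3.76e-13), and the region 2.1 kb upstream was at 12.7 to 16.2 and 0.939 to 3.11 (-2.45). A region 15.4 kb upstream was higher in βTC6 by 2.2, and one 30.5 kb into the gene was not called (-0.10, limma adjusted p = 0.71). Slc38a4 had its largest difference 51.4 kb into the gene, at 32.9, 24.4, 32.9, 25.2 and 26.7 in αTC1 against 1.56, 2.46, 1.35, 3.14 and 1.03 in βTC6 (-3.38, SE 0.20, limma adjusted p = 1.11e-11), and no library of the 2 lines overlapped there. Its region at 15.2 kb went the other way, with means of 0.573 and 9.79 (2.87, SE 0.26, limma adjusted p = 3.81e-09). Of 9 Slc38a4 regions 3 were higher in βTC6 and 5 in αTC1, against 39.9% and 38.1% of all regions.

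Many regions whose nearest gene was Slc7a11 or Slc6a15 were higher in βTC6. Of 17 Slc7a11 regions 12 were higher in βTC6 and 2 in αTC1, with 5 large ones in βTC6, where 39.9% and 38.1% of all regions were called and 12.9% were large in βTC6. The strongest lay 61.0 kb upstream, at 0.682 to 1.30 normalized reads in αTC1 and 14.3 to 23.1 in βTC6 (log2 fold change 3.37, SE 0.20, limma adjusted p = 1.43e-11). The other large ones lay 135.7 to 282.6 kb from the start site. Of 16 Slc6a15 regions 13 and 1 were called, some as far as 364.0 kb from the start site. The strongest, 42.0 kb into the gene, was at 0.14 to 1.30 against 13.2 to 18.7 (3.42, SE 0.23, limma adjusted p = 6.68e-11). Slc6a15 RNA was not called. A region 33.6 kb upstream of Slc6a6 was higher in βTC6 by 2.49, whereas one 17.5 kb from the start of Slc6a12, a gene at 0.27 to 0.86 FPKM, was higher in αTC1 (49.8 to 56.7 against 9.67 to 13.3, log2 fold change -2.14). Of the 53 genes with a region, 19 (35.8%) had calls in both directions and 3 (5.66%) had large ones in both, beside 26.4% and 3.74% of all 17389 genes with a region. The transporter genes had a median of 3 regions and all genes one of 2, and among genes with at least 3 regions the shares were 64.3% and 10.7% against 54.8% and 8.62%.

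The 9 mixtures, with the αTC1 share set at 10% to 90% in single libraries, tested whether the regions followed the cell composition. Of 28 named regions, 17 correlated with the αTC1 percentage past an adjusted p of 0.05 (exact permutation test of Pearson's r, two-sided, Benjamini-Hochberg adjusted over the 28). These included the 12 named regions with a large difference, all in the direction of the pure lines, and 5 of the 16 other named regions. Since the mixtures blend these same 2 lines, a region that differs between the pure lines is bound to follow the percentage, apart from noise. The named large regions are 12 of the 28 large ones, most of them picked for their moderated t in the pure lines, and the rest were not examined in the mixtures. The Slc6a19 upstream region fell along 41.4, 28.4, 28.9, 21.4, 19.9, 16.5, 12.6, 7.99 and 5.08 normalized reads from 10% to 90% αTC1 (r = -0.98, rho = -0.98, exact permutation p = 1.10e-05, adjusted p = 7.72e-05). The Slc6a5 region 40.4 kb upstream rose along 8.47, 13.6, 19.7, 17.9, 21.3, 29.6, 31.5, 33.7 and 46.9 (r = 0.96, rho = 0.98, exact permutation adjusted p = 7.72e-05). Both kept r = -0.98 and r = 0.96 without the outermost 2 mixtures, where 10 of the 12 large regions still passed, the exceptions being the Slc6a5 promoter (r = 0.60) and the Slc6a6 region 33.6 kb upstream (r = -0.81, adjusted exact permutation p = 0.0585). The Slc36a1 and Slc6a19 promoters no longer passed either. Of the 14 regions past the threshold there, the Slc7a6 promoter was not past it over all 9 mixtures (r = -0.41), and its r of -0.97 (adjusted exact permutation p = 0.0037) ran against the pure lines, where it was higher in αTC1. By Spearman's rho the 10 distal regions had adjusted exact permutation p-values between 0.000231 and 0.00662, whereas the Slc6a5 promoter (0.0545) and the Slc36a1 promoter (0.0607), both past the threshold by r, missed it in the exact permutation test. The smallest exact permutation p found, 5.51e-06 for the Slc1a2 promoter (r = -0.98), was the smallest the 362880 permutations can give.

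**Figure D4:**
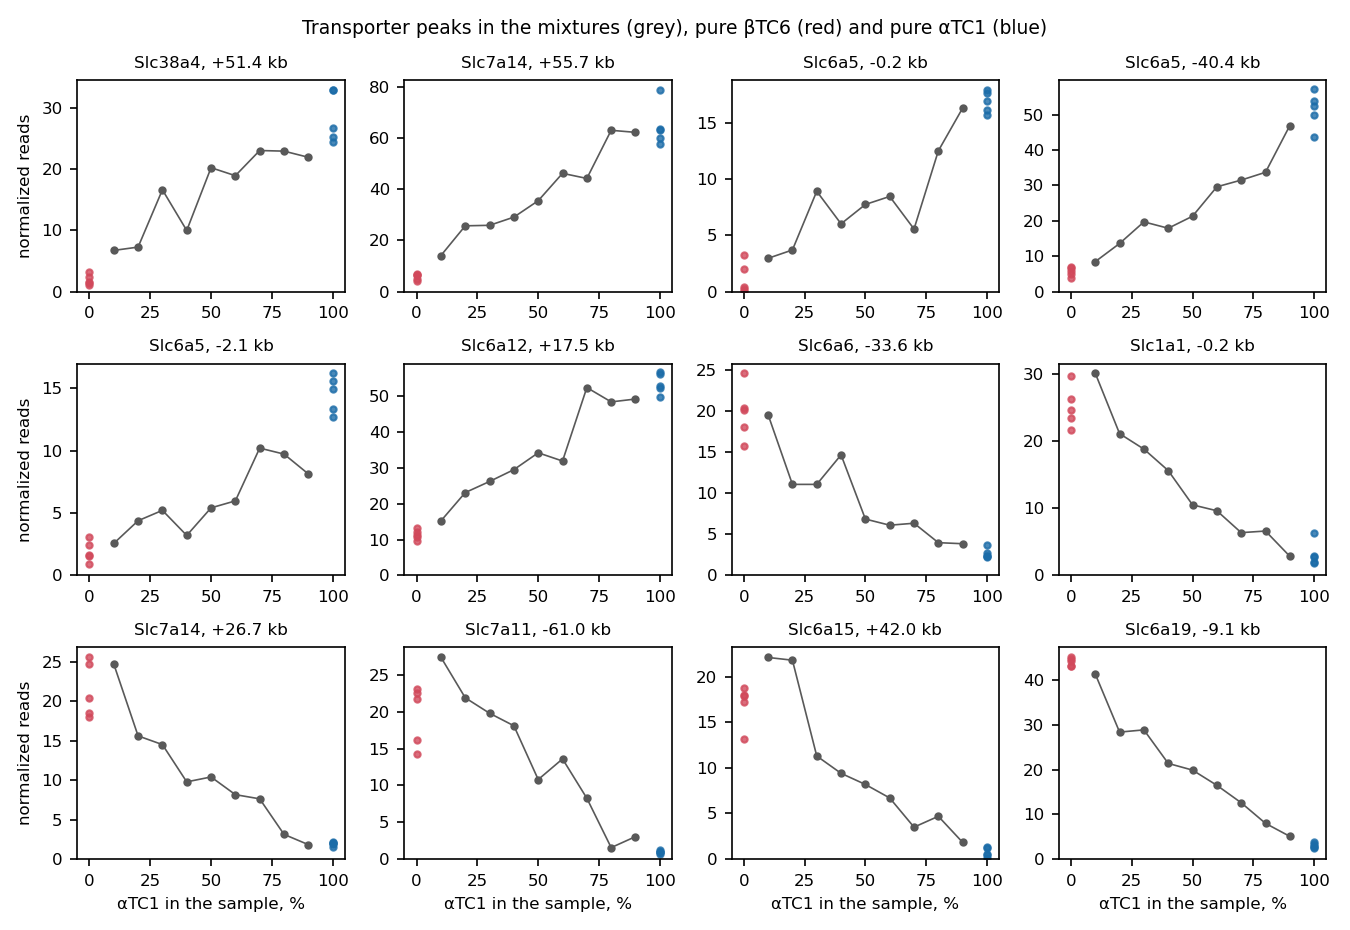
Normalized reads in the 9 mixture libraries against the percentage of αTC1 cells, with the pure libraries at either end, for the 12 named large regions. Regions higher in pure βTC6 fall and regions higher in pure αTC1 rise with the αTC1 percentage.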

How the data were processed

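Mouse αTC1 and βTC6 cells were profiled by ATAC-seq and stranded mRNA-seq. The authors aligned reads to mm9, called consensus ATAC-seq peaks (MACS2 2.1.0, DiffBind 2.2.5) and deposited read counts per peak with TMM scaling, used here as signal. They quantified RNA with RSEM 1.2.12, and the deposited expected counts (rounded here) and FPKM were both used. The deposited tables hold 0 sample columns that were left unused. Other names in the submitters' processing notes are BWA 0.7.9a, Bowtie2 2.23, Picard 1.95, Trim Galore 0.40 and Trimmomatic 0.32. The members and lists were chosen with earlier results of these data known, and the NeuroD-type, forkhead, Maf and homeodomain motifs of the regions after the fits were seen.

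Genes with at least 1 FPKM in all replicates of either line were tested with edgeR 4.0.16 (quasi-likelihood, TMM, Benjamini-Hochberg), after 92 spike-in rows (0.436 to 0.971% of counts) were left out. Peaks were tested with limma 3.58.1 on log2(value + 1), the pseudocount being 1. Whole reads were recovered from the normalized values (100% within 0.02 of a whole number). On them, edgeR called 36 transporter regions strongly higher in βTC6 and 15 in αTC1. Named genes were those past both thresholds, the 8 highest in each line, both heavy subunits and, to reach 20, the smallest p. Named regions were the promoter regions of those genes and the 5 largest moderated t in each direction. The script was tested on simulated counts. Alternatives were DESeq2 1.42.0, other scalings, filters and pseudocounts, 1 unwanted factor from the spike-ins, a replicate block and leaving out each library. After the data were seen, the spike-in set as covariate, each set alone, and αTC1 replicates 1 and 2 summed were added. Same-numbered libraries did not deviate together (correlations of -0.06 to 0.07), so the numbers do not pair them. Exon windows were aligned with minimap2 2.31-r1302. The number of libraries and the read depth limit precision, and counting intervals cover counting error only. Values of some listed genes are not reported here.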

Additional observations from a re-analysis of the deposited data

Results flagged for a closer look

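In 4 of 56 groups of 5 libraries over the 28 named regions, a single library stood apart by Dixon's criterion (gap over range above 0.71), where chance gives about 1 in 20. At the Slc7a4 promoter βTC6 replicate 3 was at 12.2 normalized reads and the other 4 libraries at 7.56 to 8.82. At the Slc1a1 promoter αTC1 replicate 4 was at 6.28 and the others at 1.82 to 2.89. In the Slc6a15 region 42.0 kb into the gene βTC6 replicate 3 was at 13.2 and the others at 17.2 to 18.7. In the Slc7a14 region at 55.7 kb αTC1 replicate 5 was at 78.9 and the others at 57.5 to 63.4. Each of these regions kept its direction and its side of the threshold without the library in question.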

How the results depend on the processing

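Of 947 values of named genes and regions under an alternative, 896 kept their direction and their side of the 5% threshold. Spike-in scaling gave 11 transporter genes higher in βTC6 and 4 higher in αTC1, against 18 and 8, while the counts over all tested genes went from 4715 and 4387 to 2132 and 1434. Spike-in set 1 alone gave 13 higher in αTC1 (5109 over all genes). Of the strong differences, limma on log2(FPKM + 1) gave 5 higher in βTC6 (702 over all genes, against 1245), and no filter gave 4 higher in αTC1 (1020, against 498). Among regions, a mean of at least 5 reads left 40 higher in βTC6, of 136 tested, and 13 strongly so (15044 and 6284 over all regions), and replicates 4 and 5 alone gave 58 higher in αTC1 (17937). Strong regions numbered 35 in βTC6 and 16 in αTC1 with DESeq2 on recovered reads, 36 and 15 with edgeR on them, 2 and 3 with a pseudocount of 5, which shrinks the fold of low regions by construction, and 13 and 14 with quantile normalization. Causes of the other changes were not tested. Leaving out 1 library at a time gave 17 to 19 and 6 to 7 genes, 8 and 2 to 3 strong ones, and 76 to 81 and 80 to 87 regions, 20 to 22 and 7 to 9 strong ones, each for βTC6 and αTC1.

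With the replicate block, 18 and 7 genes were called, 8 and 2 of them strongly, and 83 and 86 regions, 20 and 8 of them strongly, so no count moved by over 1.5 times, and no named gene or region lost or gained a call.

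Only uncalled or weak values changed sign. Slc38a2 gave -0.06 and -0.00 without 1 library. The Slc38a1 promoter region gave 0.02 in replicates 1 to 3 and between -0.12 and 0.14 without 1 library. The Slc38a5 promoter region gave 0.01 with edgeR, 0.10 in replicates 4 and 5 and between -0.10 and 0.12 without 1 library. Quantile normalization gave 0.03 for Slc38a6, 0.13 for Slc38a2 and 0.11 for Slc7a2. In the mixtures, r for Slc38a6 was -0.40 without the 2 outermost.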
